A study of Mus musculus with 22 samples.

Results

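The set of reactive astrocyte genes followed here has 10 members, Gfap, Vim, Timp1, Serpina3n, Lcn2, Cd44, S1pr3, Steap4, Aqp4 and Emp1. They were measured in the dentate gyrus of mice 6 h after severe seizures evoked by kainic acid (KA), or 6 h after saline. The members were taken by symbol from a list drawn up with earlier results of these data known, and they are 10 of the 21946 genes that the annotation of the array names. They were read by 24 probes, and each gene is given by the brightest of its probes, averaged over all arrays.

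The arrays, Illumina MouseWG-6 v2.0, hold RNA of 1 male mouse each. KA was given to 5 KO and 5 CTR mice, and saline to 6 KO and 6 CTR mice. KO mice carried Srf f/f, both copies of the gene of serum response factor (SRF) flanked by loxP sites, together with CaMKCreERT2, a Cre recombinase that tamoxifen switches on. CTR mice were littermates with Srf f/f and no Cre. Mice of both genotypes had received tamoxifen as adults. KA, a glutamate receptor agonist that evokes seizures, was injected at 35 to 50 mg/kg, and tissue was taken 6 h after severe seizures or after saline. The Cre is driven by a promoter of excitatory forebrain neurons, so astrocytes, which do not use that promoter, would keep Srf. The probe of Srf gave log2 signals of 10.95 to 11.41 in KO mice after KA and 11.73 to 12.22 in CTR mice after KA, and of 11.20 to 11.59 in KO and 12.28 to 12.62 in CTR mice after saline. Fos, an immediate-early gene induced by strong neuronal activity, lay at 11.19 to 12.78 in KO and 14.90 to 15.91 in CTR mice after KA. All these arrays lay above all saline arrays (8.74 to 10.08). The study reports Fos as a target of SRF itself, so its level does not compare neuronal activity between the genotypes. After intraperitoneal KA the study found no significant genotype difference in seizure score or in latency to severe seizures.

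Astrocytes answer seizures, injury and inflammation with a change of state called reactivity. Their intermediate filaments GFAP and vimentin accumulate, and they secrete proteins that act on the matrix, on proteases and on iron supply. Cytokines of the interleukin-6 family, which signal through STAT3, together with endothelin and TNF are among the signals known to start it. Studies in mice have divided reactive genes into a shared set, an A1 set seen with neuroinflammation and an A2 set seen with ischaemia. Gfap, Vim, Timp1, Serpina3n, Lcn2, Cd44, S1pr3 and Steap4 have been used as shared markers, and Emp1 as a marker of the A2 set. Aqp4 is a general astrocyte gene and is also among the astrocyte markers used below. None of these genes is limited to astrocytes. Vim, Timp1, Cd44 and Emp1 are also transcribed in meningeal and vascular cells and Lcn2 in neutrophils and endothelium. In bulk tissue, fewer cells of a type and less RNA per cell cannot be told apart.

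Promoter windows of 9 members of 300 bases around a start site were found in the RefSeq table of build GRCm38.p6. The CArG box that SRF binds was found in none of their 10 windows, and it occurs in 1.63% of the 32851 windows of all genes. On either strand, the AP-1 motif TGANTCA was found in 1 member and the STAT motif TTCNNNGAA in 3, against 7.81% and 8.3% of all windows. A loose NF-kappaB motif, with 3 G and 2 C around 5 free bases, was found in 8 of the 9, and in 50.8% of all windows. A match is a description and no match says only that these letters are not in the window. The windows of the 3 members that were lower in KO than in CTR mice after KA (Lcn2, Timp1 and Emp1) and of 2 that were not (Serpina3n and Gfap) are shown, 5′ to 3′ on the gene's strand, with AP-1 and STAT matches in capitals. The Emp1 window holds 2 AP-1 matches, which begin at positions -145 and -25 from the start site, and 2 STAT matches, which begin at -120 and -22. The AP-1 match nearer to the start overlaps the STAT match beside it. The Gfap match begins at -2.
Lcn2, chr2:32387690-32387989, minus strand: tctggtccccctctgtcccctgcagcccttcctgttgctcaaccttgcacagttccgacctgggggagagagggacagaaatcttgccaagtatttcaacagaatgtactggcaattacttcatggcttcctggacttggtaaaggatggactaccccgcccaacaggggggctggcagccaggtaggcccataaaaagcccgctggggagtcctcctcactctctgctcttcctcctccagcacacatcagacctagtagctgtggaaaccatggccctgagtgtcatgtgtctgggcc
Timp1, chrX:20869916-20870215, plus strand: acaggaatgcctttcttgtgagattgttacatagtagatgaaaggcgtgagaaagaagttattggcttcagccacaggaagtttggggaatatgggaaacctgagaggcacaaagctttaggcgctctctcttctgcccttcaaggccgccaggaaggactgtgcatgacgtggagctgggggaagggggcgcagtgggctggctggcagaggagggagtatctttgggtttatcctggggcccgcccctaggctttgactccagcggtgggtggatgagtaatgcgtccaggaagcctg
Emp1, chr6:135362681-135362980, plus strand: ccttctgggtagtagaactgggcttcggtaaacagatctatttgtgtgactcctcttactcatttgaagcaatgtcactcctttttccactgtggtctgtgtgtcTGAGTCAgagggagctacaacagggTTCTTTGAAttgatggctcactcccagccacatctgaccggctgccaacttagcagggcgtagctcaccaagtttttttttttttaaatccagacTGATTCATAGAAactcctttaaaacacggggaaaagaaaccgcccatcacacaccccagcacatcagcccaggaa
Serpina3n, chr12:104406458-104406757, plus strand: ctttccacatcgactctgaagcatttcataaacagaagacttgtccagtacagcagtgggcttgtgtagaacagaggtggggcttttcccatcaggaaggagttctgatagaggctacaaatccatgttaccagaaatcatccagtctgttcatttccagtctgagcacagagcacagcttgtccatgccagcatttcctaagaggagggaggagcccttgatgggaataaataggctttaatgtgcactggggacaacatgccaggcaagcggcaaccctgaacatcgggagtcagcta
Gfap, chr11:102897151-102897450, minus strand: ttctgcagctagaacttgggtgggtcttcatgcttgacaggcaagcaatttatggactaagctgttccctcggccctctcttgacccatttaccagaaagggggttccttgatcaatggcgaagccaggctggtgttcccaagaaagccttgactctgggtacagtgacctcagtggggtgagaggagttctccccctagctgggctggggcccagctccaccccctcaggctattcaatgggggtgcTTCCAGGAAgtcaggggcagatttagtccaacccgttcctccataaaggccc

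To find out which reactive genes answered KA, KA and saline arrays were compared within each genotype. In KO mice 5 of the 10 members rose, namely Serpina3n, Lcn2, Timp1, Gfap and Cd44. In CTR mice 7 rose, namely Lcn2, Timp1, Emp1, Serpina3n, Cd44, Gfap and Vim. None fell in either genotype. Calls required both a change of more than 1.5-fold and an adjusted p under 0.05, and over all genes 4.2% were called higher in KO and 8.88% in CTR mice. The median log2 difference of the 10 was 0.61 in KO and 1.49 in CTR mice, beside -0.002 in KO and -0.006 in CTR mice over all genes. KA and saline arrays of KO mice did not overlap for 5 members, all higher after KA (7.29% of all genes), and those of CTR mice did not overlap for 6 (9.06%).

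**Figure D1:**
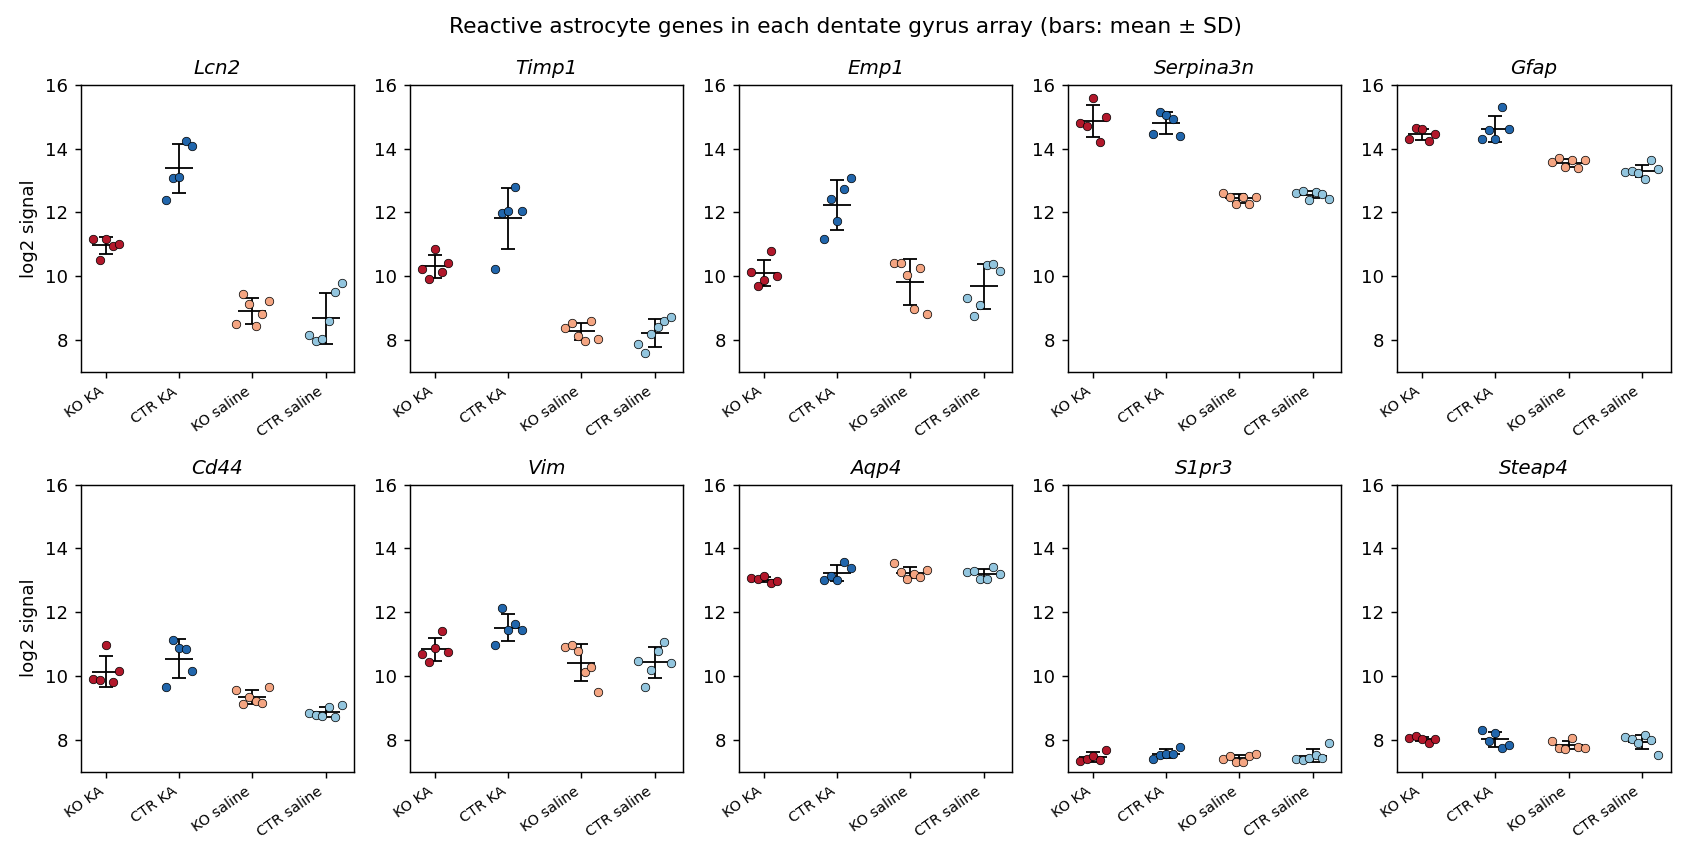
Log2 signal of the 10 members in each array (y axis), by group (x axis, KO KA, CTR KA, KO saline, CTR saline), with the mean and SD as bars. Lcn2 after KA spans 10.51 to 11.18 in KO and 12.40 to 14.24 in CTR mice, while Serpina3n spans 14.22 to 15.59 in KO and 14.40 to 15.15 in CTR mice.

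The secreted members Lcn2 and Timp1 gave the largest changes in CTR mice. Lcn2, lipocalin 2, which binds the iron-carrying siderophores of bacteria and is released by reactive astrocytes, had the largest response of the members in CTR mice. In KO mice Lcn2 had 11.18, 10.51, 11.18, 10.96 and 11.01 after KA, against a median of 8.97 (lowest 8.44, highest 9.45) after saline. This was a rise of 4.13-fold (log2 difference 2.05, SE 0.331, adjusted p = 0.00011), without overlap. Its log2 signals after KA were 12.40, 13.07, 13.12, 14.24 and 14.08 in CTR mice, against a median of 8.37 (lowest 7.97, highest 9.80) in CTR mice after saline. Again no array of one group reached the other, and the difference was 4.70 on the log2 scale (SE 0.331, 26.1-fold, adjusted p = 2e-10). The 4 neutrophil markers S100a8, S100a9, Ngp and Camp averaged 7.65 to 8.68 in KO and 8.21 to 8.82 in CTR arrays after KA, and 8.24 to 8.91 in KO and 7.90 to 9.42 in CTR arrays after saline, and none of them was called in either KA response or between genotypes after KA. S100a8 and S100a9, the brighter of the 4, had lower means in KO than in CTR mice after KA, the direction of Lcn2. They were lower by 0.97 (adjusted p = 0.24) and by 0.77 (adjusted p = 0.19) on the log2 scale. Their differences after KA against saline were -0.96 and -0.88 in KO and -0.03 and -0.06 in CTR mice, while Lcn2 rose in both. Ngp and Camp, with means of 7.71 and 7.90 over all arrays, lay near the median of all probes. The part of neutrophils in the Lcn2 signal was not tested. The study itself singled out Lcn2 on these arrays, and reported its rise and its dependence on SRF by quantitative PCR in males and females. It also predicted a CArG box upstream of Lcn2, outside the window shown here. No SRF binding was detected there by chromatin immunoprecipitation from hippocampus.

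Timp1, the tissue inhibitor of metalloproteinases 1, also answered in both genotypes. It had 10.22, 9.91, 10.86, 10.13 and 10.42 in KO mice after KA, against a median of 8.25 (lowest 7.96, highest 8.61) after saline, a rise of 4.1-fold (log2 difference 2.04, SE 0.301, adjusted p = 3.9e-05). In CTR mice it had 10.22, 11.98, 12.05, 12.80 and 12.04 after KA, against a median of 8.29 (lowest 7.60, highest 8.71), a rise of 12.1-fold (log2 difference 3.60, SE 0.301, adjusted p = 3.1e-09). KA and saline arrays did not overlap in either genotype. The saline signals lie near the median of all probes, 7.88, where background compresses differences, so both folds may be understated. A second Timp1 probe gave 3.97-fold in KO and 12.9-fold in CTR mice.

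Serpina3n, a secreted inhibitor of serine proteases, answered strongly in both genotypes. It had 14.80, 14.72, 15.59, 14.22 and 15.00 in KO mice after KA, against a median of 12.48 (lowest 12.28, highest 12.62) after saline, a rise of 5.38-fold (log2 difference 2.43, SE 0.169, adjusted p = 7.5e-10). In CTR mice it had 14.46, 15.15, 15.07, 14.93 and 14.40 after KA, against a median of 12.61 (lowest 12.39, highest 12.67), a rise of 4.73-fold (log2 difference 2.24, adjusted p = 5.6e-10). All KA arrays lay above all saline arrays. The mouse genome holds many close relatives of Serpina3n, and whether its single probe binds them was not tested.

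Of the intermediate filaments, Gfap, the filament protein that defines astrocytes, rose in both genotypes and Vim, vimentin, passed the test in CTR mice. Gfap had 14.29, 14.64, 14.61, 14.23 and 14.46 in KO mice after KA, against a median of 13.60 (lowest 13.40, highest 13.70), a rise of 1.84-fold (adjusted p = 6.7e-05). It had 14.31, 14.58, 14.31, 15.30 and 14.61 in CTR mice after KA, against a median of 13.28 (lowest 13.06, highest 13.63), a rise of 2.48-fold (log2 difference 1.31, SE 0.137, adjusted p = 8.7e-08). Its second probe gave 2.29-fold in KO and 2.52-fold in CTR mice. In KO mice Vim had 10.83 ± 0.358 after KA (SD, n = 5) and 10.42 ± 0.572 after saline (SD, n = 6), with a log2 difference of 0.41 (95% interval -0.13 to 0.95) and an adjusted p of 0.4. Vim had 10.97, 12.12, 11.45, 11.62 and 11.43 in CTR mice after KA, against a median of 10.44 (lowest 9.66, highest 11.06), and 1 KA array lay within the saline range (2.12-fold, adjusted p = 0.0024). The second Vim probe stayed at 7.25 to 7.69 on all arrays, near the low end of the scale.

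Of the surface and membrane members, Cd44, the receptor for hyaluronan, had 9.89, 9.86, 10.96, 9.82 and 10.16 in KO mice after KA, against a median of 9.26 (lowest 9.12, highest 9.66) after saline, a rise of 1.74-fold (adjusted p = 0.013). In CTR mice it had 9.65, 11.12, 10.89, 10.86 and 10.17 after KA, against a median of 8.82 (lowest 8.71, highest 9.09). The rise was 3.18-fold (log2 difference 1.67, SE 0.217, adjusted p = 2.1e-06). Without KO KA replicate 3, the highest of its group, the log2 difference in KO mice was 0.60 and was no longer called (adjusted p = 0.0596, against 0.00215 to 0.0596 over all settings tried). Cd44 has 9 probes. Another of them gave 1.78-fold in KO (adjusted p = 0.071) and 3.44-fold in CTR mice (called), and one nearer to the low end gave 1.39-fold in KO (not called) and 1.57-fold in CTR mice (called). Group means of the other 6 lay between 7.33 and 7.89, so they carry little information.

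Emp1, epithelial membrane protein 1, a tetraspan protein of the PMP22 family, was called after KA in CTR mice and not in KO mice. In KO mice it had 10.13, 9.70, 9.87, 10.79 and 10 after KA, against a median of 10.15 (lowest 8.82, highest 10.42) after saline. These groups overlapped, with a log2 difference of 0.28 (95% interval -0.48 to 1.04, adjusted p = 0.76). It had 11.18, 12.41, 11.74, 12.75 and 13.09 in CTR mice after KA, against a median of 9.74 (lowest 8.76, highest 10.38) after saline, a rise of 5.87-fold (log2 difference 2.55, SE 0.368, adjusted p = 8.6e-06).

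S1pr3, a receptor for sphingosine-1-phosphate, Steap4, a metalloreductase, and Aqp4, the water channel of astrocyte endfeet, were not called in either genotype. S1pr3 spanned 7.30 to 7.89 and Steap4 7.53 to 8.31 over all 22 arrays, near the low end of the signal range, where a change could be missed. Their second probes were lower still. Aqp4 was bright, at 13.02 ± 0.0809 in KO mice after KA (SD, n = 5), 13.22 ± 0.253 in CTR mice after KA (SD, n = 5), 13.24 ± 0.173 in KO mice after saline (SD, n = 6) and 13.21 ± 0.149 in CTR mice after saline (SD, n = 6). Its log2 difference after KA was -0.22 in KO (95% interval -0.44 to -0.01, adjusted p = 0.19) and 0.01 in CTR mice (95% interval -0.20 to 0.22, adjusted p = 0.97). The low second Aqp4 probe, at 7.70 to 8.08, was not called either.

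**Figure D2:**
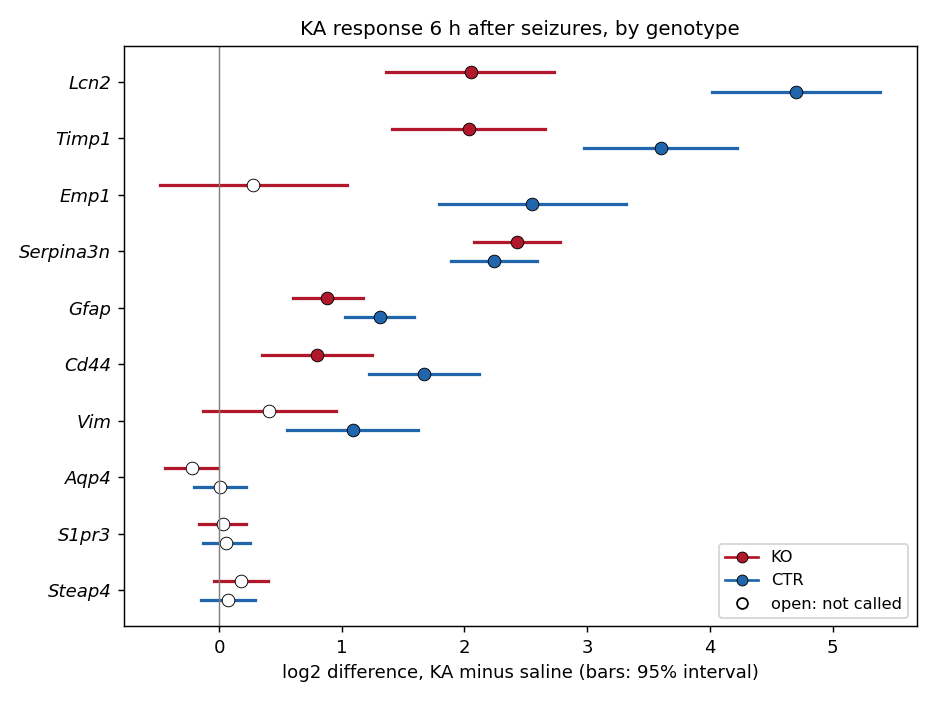
KA minus saline log2 difference (x axis) of each member (y axis) in KO mice (upper of each pair) and CTR mice (lower), with 95% intervals. Filled points were called. Lcn2 is at 2.05 in KO and 4.70 in CTR mice, Emp1 at 0.28 in KO and 2.55 in CTR mice, and Serpina3n at 2.43 in KO and 2.24 in CTR mice.

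To find out whether the members differed by genotype, KO and CTR mice were compared after KA and after saline. The KO and CTR KA arrays are the same as those in the KA responses above. After KA, 3 of the 10 members, Lcn2, Emp1 and Timp1, were lower in KO than in CTR mice and none was higher. Over all genes 3.74% were called lower. Lcn2 was 5.32-fold lower in KO mice (log2 difference -2.41, SE 0.345, adjusted p = 4.1e-05), Emp1 4.4-fold lower (log2 difference -2.14, SE 0.384, adjusted p = 0.00052) and Timp1 2.85-fold lower (log2 difference -1.51, SE 0.314, adjusted p = 0.0022). For Lcn2 and Emp1 every KO array lay below every CTR array, which held for 3.42% of all genes. Timp1 overlapped through CTR KA replicate 1, which at 10.22 lay within the KO range of 9.91 to 10.86 while the other 4 CTR arrays lay at 11.98 or above. Without that array the Timp1 difference was -1.91 (adjusted p = 3.92e-06, against 3.92e-06 to 0.05 over all settings tried). The second Timp1 probe was 2.8-fold lower (adjusted p = 0.0036).

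The other 7 members did not pass this test. For Serpina3n the difference after KA was 0.07 (KO minus CTR, 95% interval -0.30 to 0.43) and for Gfap -0.18 (95% interval -0.47 to 0.12). The intervals keep the Serpina3n and Gfap differences well under that of Lcn2, without showing that the genotypes were alike. Cd44 (-0.40, 95% interval -0.87 to 0.07, adjusted p = 0.37) and Vim (-0.68, 95% interval -1.24 to -0.12, adjusted p = 0.13) had lower means in KO mice, with overlapping arrays. The median over the 10 members was -0.30, beside -0.001 over all genes.

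After saline no member was called, and Srf was the single gene of all that was (0.00456%). Differences of the members ran from -0.12 (Serpina3n) to 0.47 (Cd44), KO minus CTR. Cd44 had 9.57, 9.12, 9.33, 9.20, 9.14 and 9.66 in KO mice after saline and 8.84, 8.79, 8.73, 9.04, 8.71 and 9.09 in CTR mice after saline. All 6 KO arrays lay above all 6 CTR arrays, by a narrow gap, which held for 0.123% of all genes, but the difference did not pass the test (log2 difference 0.47, 95% interval 0.04 to 0.90, limma adjusted p = 1). The next brightest Cd44 probe gave 0.31, also without overlap, and the one after it 0.05 with overlap, neither called. Gfap had a mean of 13.56 in KO and 13.31 in CTR mice (log2 difference 0.25, 95% interval -0.02 to 0.52, adjusted p = 1).

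**Figure D3:**
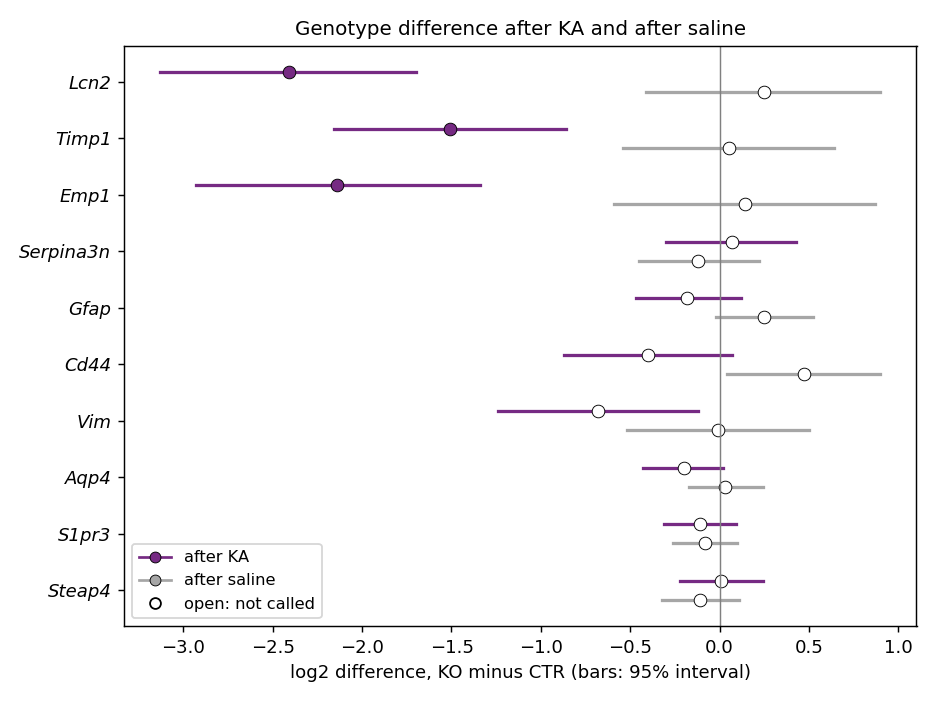
KO minus CTR log2 difference (x axis) of each member (y axis) after KA (upper of each pair) and after saline (lower), with 95% intervals. Filled points were called, and these are Lcn2 (-2.41), Emp1 (-2.14) and Timp1 (-1.51), all after KA.

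The interaction term, the KA response in KO minus that in CTR mice, tested whether the responses themselves differed, at an adjusted p under 0.01. Lcn2 was called, with a response of 2.05 in KO and 4.70 in CTR mice and a difference of -2.66 (SE 0.467, 95% interval -3.63 to -1.69, adjusted p = 0.0012). Over all genes 1.71% were called with a negative term. Emp1 (-2.28, SE 0.521, adjusted p = 0.011) and Timp1 (-1.56, SE 0.426, adjusted p = 0.036) missed the threshold. Emp1 passed it in other settings, among them without CTR KA replicate 1, where Timp1 passed too. With 1 array left out, Emp1 passed in 6 of 22 fits and Timp1 in 1. Over all settings tried the adjusted p ran from 4.34e-05 to 0.0354 for Emp1 and from 0.000227 to 0.0833 for Timp1. For Cd44 the term was -0.87 (adjusted p = 0.13), for Vim -0.68 (adjusted p = 0.42), for Gfap -0.43 (adjusted p = 0.29) and for Serpina3n 0.18 (95% interval -0.31 to 0.68, adjusted p = 0.81).

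Emp1 and Vim varied among saline arrays more than the other members, with ranges of 1.60 and 1.47 on the log2 scale in KO and 1.61 and 1.40 in CTR mice, apart from a range of 1.83 for Lcn2 in CTR mice. The mean signals of meningeal and mural cell markers varied with them. That of 4 meningeal fibroblast markers (Dcn, Lum, Col1a1 and Igf2) had a median of 10.52 (10.09 to 11.98) in KO and 12.02 (10.23 to 12.19) in CTR arrays after KA, and of 11.75 (10.39 to 12.12) in KO and 11.68 (10.74 to 12.20) in CTR arrays after saline. Of the 4, Lum fell after KA in KO mice (log2 difference -1.14, adjusted p = 0.028), and none was called in CTR mice or between genotypes after KA. The markers were at 10.95 or below in 4 of 5 KO arrays and in 2 of 5 CTR arrays after KA. The mean of 5 mural cell markers (Pdgfrb, Rgs5, Acta2, Kcnj8 and Vtn) had a median of 10 (9.90 to 10.82) in KO and 10.81 (9.87 to 11.02) in CTR arrays after KA, and of 10.82 (10 to 11.13) in KO and 10.65 (10.09 to 11.05) in CTR arrays after saline, and none of the 5 was called in any of these comparisons. In KO mice after saline the mural mean was 11.01, 11.13, 10.86, 10.16, 10.78 and 10 where Emp1 had 10.42, 10.41, 10.04, 8.96, 10.26 and 8.82, so the same 2 arrays were lowest in both. Of 6 endothelial markers, Pecam1 was 0.70 lower on the log2 scale in KO than in CTR mice after KA (adjusted p = 0.033). The others were not called and went both ways. Flt1 (-0.62) and Ly6c1 (-0.01) had lower means in KO mice, and Tek (0.50), Slco1a4 (0.37) and Cldn5 (0.24) higher ones. In CTR mice Pecam1 rose by 0.97 after KA, where Tek and Slco1a4 fell. The 6 averaged 10.19 to 10.98 in KO and 10.16 to 11.04 in CTR arrays after KA. With the meningeal level as a covariate, chosen after seeing the data, the Emp1 difference between KO and CTR mice after KA was -1.63 in place of -2.14 (adjusted p = 1.74e-06, against 1.74e-06 to 0.00434 over all settings tried), that of Lcn2 was -2.16 in place of -2.41 and that of Timp1 -1.26 in place of -1.51, all called. In that fit Emp1 also rose in KO mice after KA (0.88, adjusted p = 0.00142, against 0.00142 to 0.954) and so did Vim (0.76, adjusted p = 0.00704, against 0.00704 to 0.706), so that 7 members were called in KO mice in place of 5. The part of meningeal and vascular tissue in the genotype differences was not tested.

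**Figure D4:**
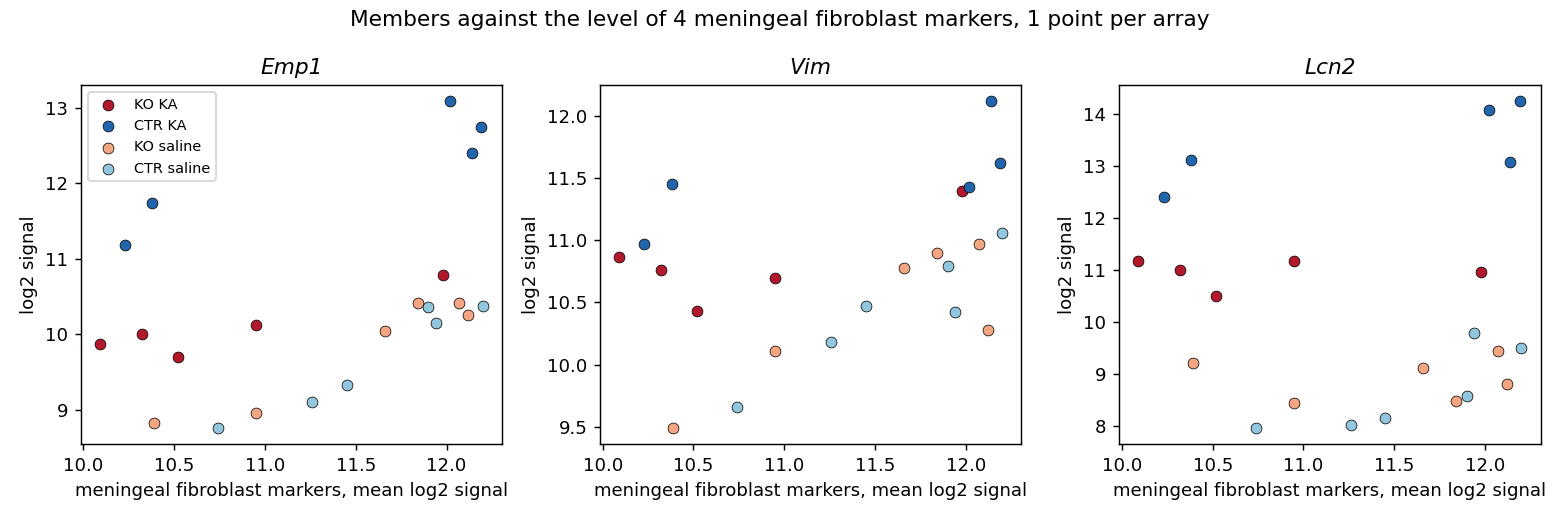
Log2 signal of Emp1, Vim and Lcn2 (y axes) against the mean log2 signal of 4 meningeal fibroblast markers (x axis), 1 point per array, coloured by group. Emp1 follows the markers among saline arrays, and all 5 CTR KA arrays (11.18 to 13.09) lie above all 5 KO KA arrays (9.70 to 10.79).

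Of 20 homeostatic astrocyte genes, 1 rose and 2 fell after KA in KO mice, 2 rose and 2 fell in CTR mice, and none was called between genotypes after KA. Over all genes 4.24% were called lower after KA in KO and 8.48% in CTR mice, beside the 4.2% and 8.88% called higher. The risers were Ppp1r3c, which targets a phosphatase to glycogen, in both genotypes (log2 difference 0.92 in KO mice, adjusted p = 5e-06, and 1.20 in CTR mice, adjusted p = 2.8e-08), and Sox9, an astrocyte transcription factor, in CTR mice (1.10, adjusted p = 3.9e-06). Hes5, a Notch target, fell by 1.43 in KO and by 1.48 in CTR mice, and Slc4a4, a bicarbonate transporter, by 0.87 in KO and by 0.81 in CTR mice. The 8 astrocyte markers averaged 13.57 to 13.75 in KO and 13.76 to 14.11 in CTR arrays after KA, and 13.57 to 13.80 in KO and 13.48 to 13.73 in CTR arrays after saline. Every KO array after KA lay below every CTR array after KA in this average. The KO range after KA lay within that after saline, while all CTR arrays after KA lay above those after saline. On their brightest probes all 8 markers had a lower mean in KO mice after KA, by 0.05 (Slc1a2) to 0.44 (Gja1) on the log2 scale. The second Gfap probe had a mean of 12.37 in KO and 12.32 in CTR mice after KA. None of the 8 was called between genotypes, and Gfap and Aqp4 among them are members themselves. Gja1, a connexin of astrocyte gap junctions, was -0.44 in KO against CTR mice after KA (adjusted p = 0.0012, no overlap) and -0.48 in KO mice after KA against saline (adjusted p = 0.00024, no overlap), both under the 1.5-fold needed for a call. Gfap was the marker called after KA. Aldh1l1 rose by 0.34 in KO (adjusted p = 0.015) and by 0.56 in CTR mice (adjusted p = 5.8e-05, no overlap), also under 1.5-fold. The part of this lower astrocyte signal in the lower members of KO mice was not tested.

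Among 5 further genes of the shared reactive set, 2 rose after KA in KO and 4 in CTR mice, and 1 was lower in KO than in CTR mice after KA. Over all genes 4.2% rose in KO and 8.88% in CTR mice. Between genotypes after KA, 3.74% were lower and 2.62% higher in KO mice. Osmr, the oncostatin M receptor, had a log2 signal of 10.37 ± 0.418 in KO and 11.34 ± 0.661 in CTR mice after KA (SD, n = 5 each), a difference of -0.97 (adjusted p = 0.011). Hspb1, a small heat shock protein, rose by 1.53 in KO (adjusted p = 0.018) and 2.79 in CTR mice (adjusted p = 2.2e-05) on the log2 scale. Aspg (1.27) and Cp, ceruloplasmin (1.20), rose in CTR mice. Of 11 other A2 genes, 4 rose in KO and 8 in CTR mice, and 6 were lower in KO than in CTR mice after KA. Ptx3, a pentraxin, had 10.11 ± 0.89 in KO and 11.62 ± 1.02 in CTR mice after KA (SD, n = 5 each), and the difference was -1.50 (adjusted p = 0.01). Cd14, a receptor for bacterial lipopolysaccharide that is also found on myeloid cells, had 9.37 ± 0.354 in KO and 11.63 ± 0.225 in CTR mice (difference -2.26, adjusted p = 2.5e-10). Ptgs2, cyclooxygenase 2, which is also induced in neurons, and Slc10a6, a carrier of sulphated steroids, differed by -1.61 (adjusted p = 1.2e-06) and -1.74 (adjusted p = 0.00018). Of 12 A1 genes, 1 rose in KO and 2 in CTR mice. Ggta1, a galactosyltransferase, ran the other way from Lcn2, with 12.08 ± 0.459 in KO and 10.91 ± 0.959 in CTR mice after KA (SD, n = 5 each), 1.17 higher in KO mice (adjusted p = 0.014). Srgn, serglycin, rose by 0.83 in CTR mice (adjusted p = 0.0074). The lists' median differences between genotypes after KA were -0.94 (shared set), -0.91 (A2) and -0.04 (A1).

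Of 14 ligands known to start astrocyte reactivity, 5 rose after KA in CTR mice, none was called in KO mice, and 4 were lower in KO than in CTR mice after KA. Over all genes 8.88% rose in CTR and 4.2% in KO mice, and 3.74% were lower in KO than in CTR mice after KA. Il11, a cytokine of the interleukin-6 family, had 8.05, 8.30, 10.06, 8.17 and 8.05 in KO mice and 11.18, 12.21, 12.63, 10.70 and 10.33 in CTR mice after KA, a difference of -2.88 (adjusted p = 8.3e-06). Of the KO arrays 4 lay at 8.30 or below, and KO KA replicate 3 stood above them. After saline, Il11 spanned 7.48 to 8.18 in KO and 7.67 to 8.03 in CTR mice. Edn1, endothelin 1, had 9.03, 8.72, 9.25, 9.39 and 9.15 in KO mice and 10.38, 10.57, 10.28, 10.85 and 11.28 in CTR mice after KA (difference -1.56, adjusted p = 2.1e-06). Lif and Osm, 2 further cytokines of the interleukin-6 family, were lower in KO mice by 0.75 (adjusted p = 0.0026) and by 0.65 (adjusted p = 0.00043) on the log2 scale, at signals of 7.54 to 8.95 after KA. The interaction was called for Il11 (-2.81, adjusted p = 0.0011) and Edn1 (-1.61, adjusted p = 2e-04), and with a negative term for 1.71% of all genes.

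**Figure D5:**
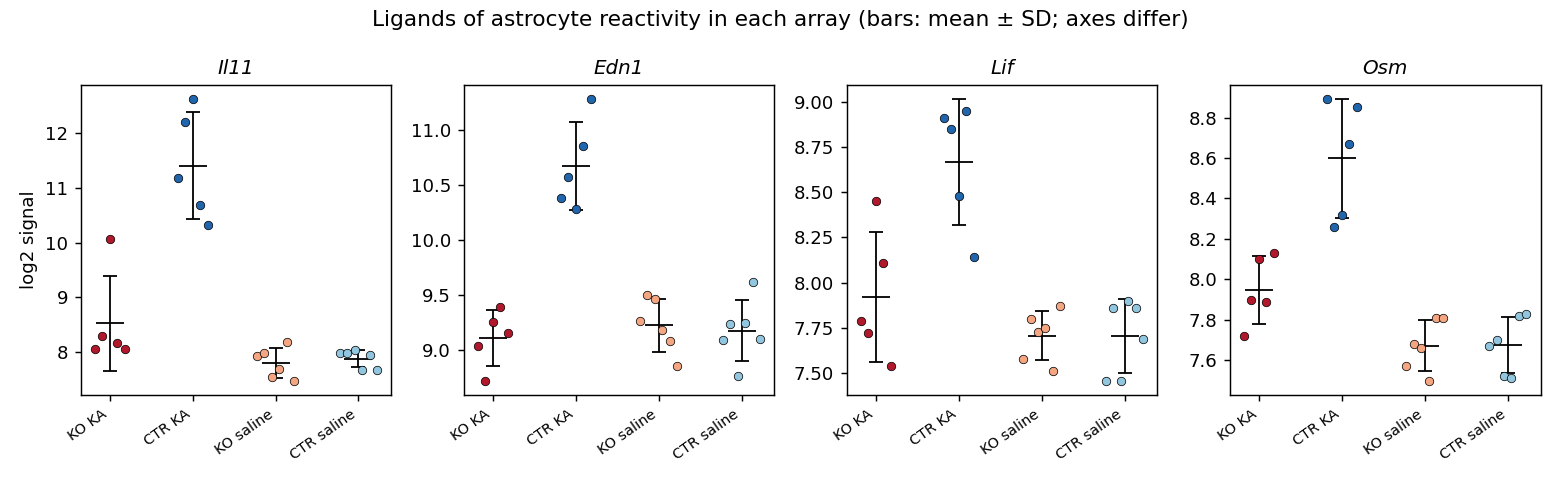
Log2 signal (y axes, which differ in range) of the 4 ligands with the largest called differences, in each array by group (x axis), with the mean and SD as bars. After KA, Edn1 spans 8.72 to 9.39 in KO and 10.28 to 11.28 in CTR mice.

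Among 10 measured receptors of these ligands, 2 rose in KO and 5 in CTR mice after KA, and 2 were lower in KO than in CTR mice after KA. Over all genes 4.2% rose and 4.24% fell in KO mice, and 8.88% rose and 8.48% fell in CTR mice. Between genotypes after KA, 3.74% of all genes were lower in KO mice, and 1.71% had a negative interaction called. Ednrb, the endothelin receptor that astrocytes carry, had 12.83 ± 0.159 in KO and 13.53 ± 0.172 in CTR mice after KA (SD, n = 5 each), a difference of -0.70 (adjusted p = 6.7e-06), and its interaction was called (-0.78, adjusted p = 0.00025). Tnfrsf1a, a TNF receptor, was lower in KO mice by 1.02 on the log2 scale (adjusted p = 0.00055). Tgfbr2 (0.73 in KO, 1.24 in CTR) and Il6ra (0.80 in KO, 0.79 in CTR) rose in both genotypes. Of 9 measured transcription factors of reactivity, Stat3 had 11.92 ± 0.371 in KO and 12.58 ± 0.181 in CTR mice after KA (SD, n = 5 each), a difference of -0.66 (adjusted p = 0.0099). Nfia, which promotes astrocyte fate, fell after KA by 0.71 in KO and by 0.88 in CTR mice. In all, 1 of the 9 rose and 1 fell in KO mice, and 3 rose and 1 fell in CTR mice. Between genotypes after KA, 2 were lower in KO mice, Stat3 and the deleted Srf itself, and 1 was higher, against 2.62% of all genes called higher. That was Smad3, a mediator of TGF-beta signals named here after its values were seen, with a mean of 13.92 in KO and 13.12 in CTR mice (difference 0.80, adjusted p = 0.0055). Of 22 measured partners and relatives of the members, S1pr2, a further sphingosine-1-phosphate receptor, rose by 0.78 in KO (adjusted p = 0.0016) and 1.27 in CTR mice (adjusted p = 1.9e-06). Pmp22, a relative of Emp1, was lower in KO mice after KA by 0.90 on the log2 scale (adjusted p = 0.0014). In that list 1 rose and 2 fell in KO mice, and 2 rose in CTR mice. Pmp22 alone was called between genotypes after KA. These counts lie near the shares over all genes.

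Genes with the most similar pattern were found by the distance between their 3 differences from the CTR saline mean (KO saline, KO KA and CTR KA), over 4 group means and 13262 brighter genes. Nearest to Lcn2 were Ccl4 (distance 0.392) and Socs3 (0.439), to Timp1 Vgf (0.168) and Sdcbp2 (0.19), and to Emp1 Angptl4 (0.0861) and Wdr92 (0.164). Nearest to Serpina3n were Drd4 (0.103) and Hs3st2 (0.292), and to Gfap Numbl (0.128) and Nuak2 (0.128). Cd44 had Rnf19b (0.302) and Crhbp (0.337) beside it, and Vim had Med10 (0.0128) and Ube2h (0.0408). Socs3, a feedback inhibitor of STAT3 signalling, differed from CTR saline by 1.91 in KO and 4.53 in CTR mice after KA.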

How the data were processed

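Dentate gyri of 22 mice, 1 array each, were measured on Illumina MouseWG-6 v2.0 arrays. The authors subtracted background, quantile-normalized and deposited the values as log2 signal, which was used here (46237 probes). A second deposited table holds intensity on a linear scale. Of its 22 columns, 6 matched the log2 values under their own title and 16 under another, so it served only for this check. No detection p-values were used, and no probe was filtered out. Symbols were updated through RefSeq tables (937 changed).

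Group means were fitted with limma 3.58.1 in R 4.3.3 (18 residual degrees of freedom), with Benjamini-Hochberg adjustment over all 46237 probes. A call needed an adjusted p under 0.05 and a change over 1.5-fold, or, for the interaction, an adjusted p under 0.01. The fit was tested on simulated data. From each other list, at most 4 called genes with the largest differences were named, and for each member called in CTR mice the 2 nearest genes. The members and lists were chosen with earlier results of these data known. Array medians were 7.86 to 7.91, and correlations within groups 0.965 to 0.995. Read depth does not apply to arrays, and the number of arrays limits the precision. Alternatives were a dim-probe filter, only the compared groups, a replicate block, an unmoderated analysis, array weights, probe means and leaving out each array. Normexp background (offset 50), exact quantile normalization and marker covariates were chosen after seeing the data. The covariates were the mean signals of the meningeal fibroblast markers and of 3 choroid plexus markers (Ttr, Folr1 and Kl). After KA the choroid plexus mean ran from 9.22 to 13.09 in KO and 9.42 to 12.84 in CTR arrays. After saline it ran from 9.83 to 13.29 in KO and 10.30 to 11.40 in CTR arrays. The part of choroid plexus in the signals was not tested.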

Additional observations from a re-analysis of the deposited data

Results flagged for a closer look

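The KA response of Lcn2 differed between genotypes by a test of the difference itself. The response was 2.05 in KO and 4.70 in CTR mice on the log2 scale, and the interaction was -2.66 (limma adjusted p = 0.0012).

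S1pr3 had a log2 signal of 7.89 in CTR saline replicate 6, where the other 5 arrays of the group lay at 7.35 to 7.51. The gap to the nearest array was 0.703 of the group's range. Of 40 groups of values of the members checked in this way, 1 stood out, and chance alone marks about 1 in 20. The signal lies near the low end of the scale.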

How the results depend on the processing

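The counts of members called higher after KA in CTR mice (7), called lower in KO than in CTR mice after KA (3) and called after saline (0) were the same in all 22 fits that left out 1 array. The interaction count, 1 here, was 2 with the dim-probe filter, probe means, normexp background and exact quantile normalization, where Emp1 passed too. It was also 2 with the meningeal or the choroid plexus covariate, again with Emp1, and 3 with array weights, where Timp1 also passed. It ranged from 1 to 3 with 1 array left out, and CTR KA replicate 1 gave the 3 (Emp1 -2.54, Timp1 -1.96). The count in KO mice after KA ranged from 4 to 5 with 1 array left out, since Cd44 was lost without KO KA replicate 3. It was 7 with the meningeal covariate and 4 with probe means. With probe means the count in CTR mice was 5, and Vim (0.51) and Cd44 (0.47) were not called, since these means include dim probes. The cause of the other changes was not tested. No called difference changed sign.

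With the replicate number as a block, the counts were 5 in KO and 7 in CTR mice after KA, 3 between genotypes after KA, 0 after saline and 1 for the interaction, and the Lcn2 interaction was -2.66. Of 31 pairs of arrays with the same number, 17 had deviations that correlated above 0.1. The median correlation was 0.129 for these pairs and -0.00667 for pairs of different groups and numbers. Since 1 of 22 arrays resembled its own number most, the numbers were not taken to pair the mice, though a weaker likeness remains possible. Planned background and normalization alternatives on the linear table were not run, since its headers did not match, and a slide block was not possible without slide names. Signals near 7.88, the median of all probes, understate changes, which limits S1pr3 and Steap4 most.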

Other observations

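Single arrays stood at the edge of their group for several members, a pattern chosen after the values were seen. CTR KA replicate 1 was the lowest of its group for 6 of the 7 members that rose in CTR mice. KO KA replicate 3 was the highest of its group for 3 of those 7 (Timp1, Serpina3n and Cd44). The same array was also the highest KO array after KA for Il11 (10.06), Hspb1 (12.80), Ptx3 (11.55) and Slc10a6 (9.40).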
